A study of Mus musculus with 26 samples.

Results

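Nur77 (gene symbol Nr4a1) is an orphan nuclear receptor of the NR4A family. The regions described here are places on macrophage chromatin where it was found both before and after lipopolysaccharide (LPS), and where acetylated histone H3 lysine 27 (H3K27ac) was present in every library. The sites were taken from the authors' peak lists of 6 chromatin immunoprecipitation (ChIP-seq) libraries made with an antibody to the HA tag of an HA-Nur77 construct. Peaks overlapping by at least 1 bp were merged into 42505 regions, of which 11234 had a peak in all 6 HA libraries. Of these, 8685 also overlapped an H3K27ac region in each of 8 H3K27ac libraries. These 8685 regions, with a median width of 1017 bp, are called constitutive acetylated sites here. "Constitutive" means only that a peak was called in every library, and its height could still differ between conditions. HA peaks that appeared or disappeared with LPS are outside the set by construction.

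The cells were RAW264.7, a mouse macrophage line, in stable derivatives with a doxycycline-inducible construct coding for either HA-Nur77 (Nur77 cells) or GFP (GFP cells). All cells, GFP cells included, received doxycycline at 50 ng/ml for 18 h, so that the constructs were induced in every group. Stimulated cells received LPS at 500 ng/ml for 1 h. HA ChIP was made in Nur77 cells after LPS and untreated (n = 3 libraries each). RNA polymerase II (Pol II) and H3K27ac ChIP were made in Nur77 and GFP cells, each after LPS and untreated (n = 2 for each assay and group), with 4 input libraries of unprecipitated chromatin, 1 per cell line and condition. No HA library of GFP cells was used, so the part of an HA peak that does not come from the tagged protein was judged from input alone. Nur77 came from an induced construct and not from its own gene, and the construct and the cell line carrying it cannot be told apart. Whether replicates were grown as separate cultures is not given in the labels, and the p-values then reflect only the spread among libraries, which may be technical.

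Nur77 binds DNA as a monomer at the NBRE, an AGGTCA core preceded by AA, and its own gene is an immediate-early gene that macrophages induce within the first hours of LPS. H3K27ac marks active promoters and enhancers, and Pol II marks genes and enhancers that are being transcribed. LPS acts through Toll-like receptor 4 to activate NF-kB, AP-1 and interferon regulatory factors, which bind largely at enhancers already opened in macrophages by PU.1, C/EBP and RUNX factors.

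The libraries of HA ChIP held between 6.41 and 18.2 M (10 to the power 6) mapped tags, those of Pol II between 11.9 and 23.1 M, those of H3K27ac between 22.3 and 28.4 M and the inputs between 14.02 and 23.4 M. Both HA replicate 3 libraries stood apart: their peaks were called at a width of 427 bp after LPS and 342 bp untreated, against 826 to 1017 bp in the other 4. Of their tags 8.44% and 7.54% lay in peaks, against 12.83% to 17.00% in the other 4. Untreated Nur77 Pol II replicate 1 had an estimated fragment length of 1550 bp, against 174 to 318 bp in the other 7 Pol II libraries. All 10 macrophage markers on a fixed list (among them Csf1r, Itgam and Spi1) carried Pol II and H3K27ac regions. Their summed Pol II level, taking each gene's strongest region by its mean over libraries, was 33448 scaled tags, against 777 over 5 T cell markers, 332 over 4 B cell markers, 113 over 4 neutrophil markers and 0 over 3 fibroblast and over 3 epithelial markers. Pol II regions also lay at 2 T cell, 2 B cell and 2 neutrophil markers, and H3K27ac regions at 2, 1 and 2 of these types' markers. H3K27ac regions lay at 2 epithelial markers as well. The strongest Pol II level among other types' markers, at Lck (438), was above Adgre1 (44.0) and Itgam (168) and below the other macrophage markers. Of the macrophage markers 5 had a constitutive acetylated site, and of the other types' markers none had one.

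Some of the sites cover gene starts, and their sequences can be shown with the NR4A and macrophage motifs they hold. In all, 1159 sites overlapped 1533 RefSeq promoter windows (250 bp before to 50 bp after a gene's start, GRCm38.p6, 1349 genes). The 6 windows below were chosen after values were seen. Of these 3 have an NBRE close to the centre of a strong HA peak. The one at Slpi is shown because its HA level rose with LPS, and those at the BCL2 family paralogs Bcl2a1b and Bcl2a1d because they hold AP-1 and PU.1 motifs close together. Each is printed 5′ to 3′ on the gene's strand, in lower case with the motif in capitals. Capitals mark the NBRE (AAAGGTCA, or TGACCTTT where it lies on the other strand) in Kat7, Dennd2d and Trem2, the C/EBP motif (TTNNGCAA) in Slpi, and the AP-1 (TGANTCA) and PU.1 (GAGGAAGT) motifs in both Bcl2a1 genes. Other matches are left in lower case: C/EBP in Kat7, RUNX in Dennd2d, and AP-1 and C/EBP in Trem2.
Kat7, chr11:95310197-95310496, minus strand: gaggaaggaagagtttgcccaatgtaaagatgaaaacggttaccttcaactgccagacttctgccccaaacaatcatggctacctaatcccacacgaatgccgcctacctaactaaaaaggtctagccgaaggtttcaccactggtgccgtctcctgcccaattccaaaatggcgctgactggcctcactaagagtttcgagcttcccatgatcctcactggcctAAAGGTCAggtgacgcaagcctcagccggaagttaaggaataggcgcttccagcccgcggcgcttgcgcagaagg
Dennd2d, chr3:106485790-106486089, plus strand: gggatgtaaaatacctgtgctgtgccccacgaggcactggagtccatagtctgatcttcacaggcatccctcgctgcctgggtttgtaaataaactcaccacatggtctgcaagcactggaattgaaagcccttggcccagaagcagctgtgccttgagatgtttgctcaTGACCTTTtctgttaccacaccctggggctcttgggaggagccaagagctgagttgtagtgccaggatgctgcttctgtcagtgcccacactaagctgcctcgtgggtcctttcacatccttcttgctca
Trem2, chr17:48346151-48346450, plus strand: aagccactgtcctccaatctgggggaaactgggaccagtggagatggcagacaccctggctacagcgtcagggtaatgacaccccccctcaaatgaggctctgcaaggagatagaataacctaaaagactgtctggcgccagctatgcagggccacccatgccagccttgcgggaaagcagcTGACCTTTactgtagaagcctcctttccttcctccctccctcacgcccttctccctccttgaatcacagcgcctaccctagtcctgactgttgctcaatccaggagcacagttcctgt
Slpi, chr2:164356458-164356757, minus strand: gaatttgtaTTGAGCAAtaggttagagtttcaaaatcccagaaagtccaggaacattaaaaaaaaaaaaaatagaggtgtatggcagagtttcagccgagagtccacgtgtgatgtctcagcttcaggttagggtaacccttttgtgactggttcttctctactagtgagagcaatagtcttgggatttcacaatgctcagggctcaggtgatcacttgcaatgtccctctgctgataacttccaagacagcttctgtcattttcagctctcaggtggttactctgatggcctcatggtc
Bcl2a1b, chr9:89199023-89199322, plus strand: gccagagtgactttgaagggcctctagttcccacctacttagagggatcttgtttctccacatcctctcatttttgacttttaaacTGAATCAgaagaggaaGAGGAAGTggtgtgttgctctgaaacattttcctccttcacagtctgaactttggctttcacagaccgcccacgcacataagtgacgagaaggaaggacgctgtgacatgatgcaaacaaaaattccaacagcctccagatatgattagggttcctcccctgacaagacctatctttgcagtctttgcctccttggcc
Bcl2a1d, chr9:88731801-88732100, minus strand: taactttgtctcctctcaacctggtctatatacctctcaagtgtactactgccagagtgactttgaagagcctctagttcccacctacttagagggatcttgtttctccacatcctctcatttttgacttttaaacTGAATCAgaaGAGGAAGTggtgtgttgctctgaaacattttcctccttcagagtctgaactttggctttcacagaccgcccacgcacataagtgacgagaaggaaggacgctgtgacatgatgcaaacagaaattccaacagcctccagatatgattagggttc

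Over all 1533 windows under a constitutive acetylated site, the NBRE was found in 52 (3.39%), against 26 of 5373 windows (0.484%) that carried H3K27ac in all 8 libraries but no HA peak, and 1.51% of all 32851 windows. Both strands were searched, and every NBRE also contains the AGGTCA core, which was found in 18.6% of the windows under a site, 10.9% of the acetylated windows with no HA peak and 16.3% of all windows. The AP-1 motif was found in 10.4%, 4.26% and 7.81% of the same 3 sets, and PU.1 in 7.31%, 2.40% and 3.20%. NF-kB (GGGNNTTCC) was found in 9.07%, 6.92% and 5.82%, C/EBP in 9.85%, 8.51% and 10.8%, and RUNX (TGTGGT) in 13.5%, 12.5% and 16.8%. The NBRE also lay closest to the peak: its median distance to the centre of the HA region was 31.75 bp, and 39 of 52 matches (75%) were within 100 bp. The share within 100 bp was 51.2% for AP-1, 45.2% for PU.1, 43.9% for the AGGTCA core, 39.5% for C/EBP, 36.1% for NF-kB and 33.6% for RUNX, and the midpoints of the windows themselves were within 100 bp in 29.5%. These are descriptions of letters in promoter windows: no sequence of the sites away from gene starts was read here.

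The printed promoters differed in how they behaved after LPS. All values per library are tags scaled to 10 M mapped tags, with a further scaling between libraries. A value is the sum over the stretches of a region that were called as peaks in that library, so it moves with the called length as well as with the height. A log2 fold change of Pol II or H3K27ac is therefore a change of summed tags, and the change per kb of called peak is given beside it where it differs most or where the call was lost. A log2 fold change is called at a false discovery rate (FDR) of 0.05 from limma over all regions of the assay. At Trem2, a lipid-sensing receptor of macrophages and microglia, the HA level was 97.3, 57.5 and 140.9 tags after LPS, against 184, 135 and 277 untreated. This log2 fold change of −1.03 was not called (limma adjusted p = 0.153) but was called with the replicate number as a block (adjusted p = 1.8e-08). Pol II at Trem2 fell, with 218 and 192 tags in Nur77 cells after LPS, against 821 and 1206 untreated, and 268 and 273 in GFP cells after LPS, against 807 and 1246 untreated (log2 fold changes −2.28 and −1.89). The called length was 2.89 kb after LPS, against 10.4 kb untreated, in Nur77 cells, and per kb the changes were −0.64 and −0.60 and were not called. H3K27ac over Trem2 fell by 1.12 on the log2 scale in Nur77 cells and by 0.85 in GFP cells, and per kb by 1.17 and 1.03. At Slpi, a protease inhibitor that restrains inflammatory signalling, HA was 209, 128 and 189.6 tags after LPS, against 41.2, 25.5 and 36.7 untreated. Pol II at Slpi was 458 and 348 tags in Nur77 cells after LPS, against 24.8 and 31.9 untreated, and 209 and 159 in GFP cells after LPS, against 10.3 and 9.08 untreated (3.78 and 4.11 as sums, 1.36 and 0.90 per kb, all called). In Pol II at Trem2 and Slpi, the LPS libraries of each line did not overlap its untreated libraries.

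Kat7, which codes for the histone acetyltransferase HBO1, had a strong promoter peak (226 deposited tags on average) and no called change in any assay. Its H3K27ac changes were 0.06 in Nur77 and 0.00 in GFP cells and its Pol II changes 0.25 and 0.11. At Dennd2d, a regulator of Rab GTPases with the NBRE 3 bp from the centre of the HA region, HA changed by 0.18 (not called). H3K27ac at Dennd2d rose by 0.43 in Nur77 and 0.53 in GFP cells and Pol II rose by 1.08 in Nur77 cells, its 0.48 in GFP cells not being called. Per kb, of these only the H3K27ac change in GFP cells (0.34) was called. The Bcl2a1 paralogs code for anti-apoptotic proteins induced by NF-kB. Pol II rose over Bcl2a1b by 2.53 in Nur77 and 2.34 in GFP cells and over Bcl2a1d by 2.91 and 2.67. H3K27ac rose over Bcl2a1b by 1.32 and 1.45 and over Bcl2a1d by 1.56 and 1.68. HA changed by 0.42 and 0.55, each called only with the replicate block. The Pol II and H3K27ac regions of both overlapped an input region. The Bcl2a1 genes are close copies of each other, so reads may be split between them and their separate values are uncertain.

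Constitutive acetylated sites lay mostly in genes and away from gene starts. Of the 8678 sites on annotated chromosomes 6461 (74.5%) overlapped a gene, its span taken with 1 kb on either side, and 64.8% a protein-coding gene. Among the 11234 constitutive HA regions the share in a gene was lower where H3K27ac was present in only 1 to 7 libraries (61.4% of 1680) or in none (51.7% of 868). Gene starts were known for the chromosomes of 8437 sites, and 1289 of these (15.3%) lay within 1 kb of a start, against 4.35% of the regions with H3K27ac in 1 to 7 libraries and 2.48% of those with none. The median distance to the nearest start was 15.7 kb, 21.4 kb and 23.2 kb in the same order. Since H3K27ac is known to lie at active gene starts and the rule used it, these shares describe the set and are not tested.

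Pol II accompanied the acetylated sites more often than the other constitutive HA regions. A Pol II region of at least 1 library overlapped 94.1% of the sites, against 51.3% and 7.83% of the constitutive HA regions with H3K27ac in 1 to 7 and in no library. A Pol II region in all 8 libraries overlapped 67.8% (5890 sites), 4.82% and 0.461%. Within the set the share with Pol II in all 8 libraries was 95.6% of the 1289 sites within 1 kb of a start, 73.2% of the 2011 at 1 to 10 kb, 61.1% of the 3415 at 10 to 50 kb and 54.0% of the 1722 farther out. HA height ran differently: the median of the sites' mean HA level was 40.1 deposited tags within 1 kb of a start, against 61.8, 57.5 and 57.1 in the 3 classes farther away. Across the H3K27ac classes it was 55.1 tags at the sites, 42.8 at regions with H3K27ac in 1 to 7 libraries and 35.3 at those with none. The authors' fold over the local background ran the other way, with medians of 9.61, 11.3 and 11.8. Just outside the rule, the 298 regions with H3K27ac in 7 of 8 libraries had a median HA level of 41.9 tags.

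**Figure D1:**
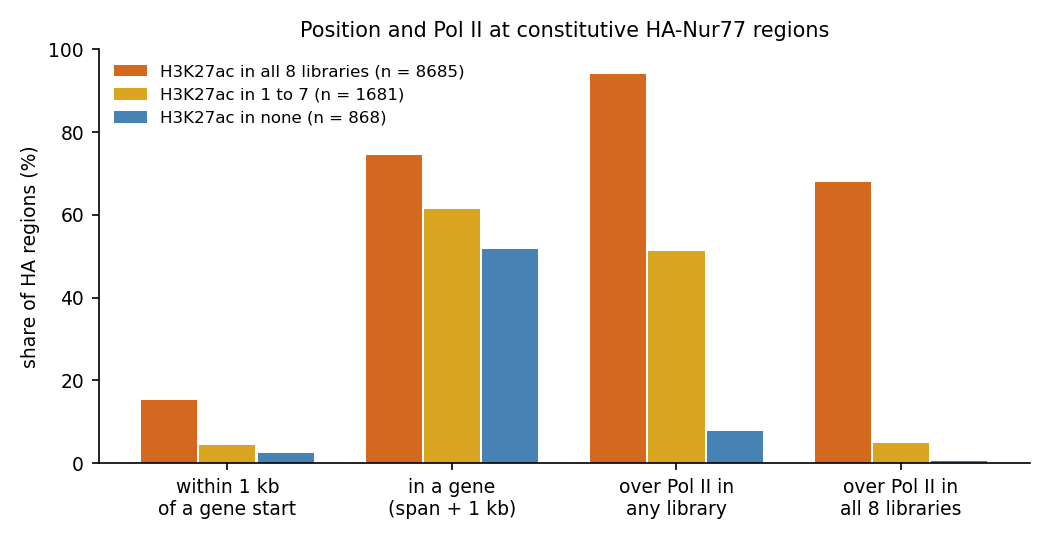
Share of constitutive HA regions (y axis, %) within 1 kb of a gene start, in a gene, over Pol II in any library and over Pol II in all 8 libraries, for regions with H3K27ac in all 8 libraries, in 1 to 7 and in none. The bars for H3K27ac in all 8 are the highest in each group, and the widest gap is in Pol II in any library, with 94.1% against 7.83% for regions with no H3K27ac.

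The sites sat in large acetylated regions. Of 27094 regions with H3K27ac in all 8 libraries 8322 (30.7%) held at least 1 site: 8029 held 1 and 293 held 2 or more. The most was 5, over Tns3 (chr11:8562982-8641580), which codes for the focal adhesion protein tensin 3, and over Cttnbp2nl (chr3:104991934-105061456), a partner of the STRIPAK phosphatase complex. The median length called as H3K27ac was 2.94 kb with a site and 2.03 kb without, and the median level 148 and 62.6 scaled tags. Of 17081 regions with Pol II in all 8 libraries 5721 (33.5%) held a site, with median levels of 170 tags with a site and 149 without.

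The strongest HA sites were largely places where input also had a peak. Ranked by mean deposited tags, 8 of the 10 strongest overlapped an input peak, led by chr2:98666645-98667661 with 52741.7 tags. Of these 8, 6 had no protein-coding gene within 50 kb. In all, 33 of the 8685 sites overlapped an input peak and 860 (9.90%) a broader input region. The other 2 of the 10 lay near the BCL2 family genes Mcl1, an anti-apoptotic member, and Pmaip1, which codes for the pro-apoptotic NOXA. The site near Mcl1 (chr3:95650265-95651281, 5663 bp from the gene and over an input region) had 1401, 1873 and 1101 tags after LPS, against 1455, 1418 and 1243 untreated. The site near Pmaip1 had 1028, 587 and 1185 tags after LPS, against 1133, 733 and 1536 untreated, so that the conditions overlapped at both. Pol II over the region from Ensa to Adamtsl4 that includes Mcl1 rose, with 40499.7 and 49194 tags in Nur77 cells after LPS, against 9388 and 11464 untreated. In GFP cells it was 49081 and 40001 after LPS, against 13177 and 13626 untreated. These are changes of 2.11 and 1.73, and of 1.53 and 1.63 per kb. H3K27ac near Pmaip1 differed between the lines, with 1051 and 972 tags in Nur77 cells, against 567 and 480.5 in GFP cells, after LPS. Untreated it was 921 and 884 in Nur77 cells, against 443 and 450.0 in GFP cells.

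The next strongest sites outside input peaks lay within or beside Myo5a (902 mean tags), an actin motor, H3f3a (798), coding for histone H3.3, and the ubiquitin hydrolase Usp32 (751). They were followed by the interferon receptor subunit Ifnar1 (693), the Notch modifier Lfng (679), the Rac activator Tiam1 (665) and the dipeptidase gene Dpep2 (659), among others. None of these had a called HA change without the replicate block. At Tiam1 (chr16:89848240-89849256) HA was 418, 681 and 392 tags after LPS, against 739, 834 and 536 untreated. Its log2 fold change of −0.52 was called only with the replicate block (adjusted p = 5.3e-05). At Usp32 (chr11:85003141-85004157) HA was 791, 721 and 729 tags after LPS, against 625, 696 and 665 untreated, with a change of 0.17 that was not called. H3K27ac over Usp32 rose by 1.68 in Nur77 and 1.88 in GFP cells, and by 0.85 and 0.59 per kb. At Lfng H3K27ac fell by 0.79 in Nur77 and by 0.77 in GFP cells.

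Most constitutive acetylated sites had no called change in HA, and a minority moved with LPS. At FDR 0.05 270 sites (3.11%) rose and 84 (0.967%) fell, against 3.28% and 1.35% of all 11234 constitutive HA regions, shares close to the background. Same-numbered HA libraries deviated together, and with the replicate number as a block 1801 sites (20.7%) rose and 1528 (17.6%) fell, against backgrounds of 20.4% and 20.0%. Without scaling between libraries the count of 354 was 3, all higher, with a median shift of 0.07 over all regions. The count also depended on single libraries: leaving out untreated or LPS replicate 1 gave 0 calls. It was 107 with LPS replicate 3 left out and 49 with untreated replicate 3 left out. With both left out it was 0, and the block then called 1480 higher and 1321 lower. The share of all tags lying in the sites was 9.43%, 9.50% and 4.39% after LPS, against 9.43%, 8.51% and 4.17% untreated. The means were 7.77% ± 2.93 after LPS and 7.37% ± 2.81 untreated (SD, n = 3 each), a difference of 0.402 percentage points (exact two-sided permutation test p = 0.6, smallest possible 0.1). With libraries paired by number the share was higher after LPS in 2 of 3 pairs (exact sign-flip test p = 0.5, smallest possible 0.25). Without the sites over an input peak the shares were 8.33%, 8.53% and 3.88% after LPS, against 8.10%, 7.33% and 3.61% untreated (exact permutation test p = 0.5), higher in all 3 pairs (exact sign-flip test p = 0.25). As a share of the tags in HA peaks they ran the other way, with 56.7%, 53.2% and 49.1% after LPS, against 60.9%, 63.0% and 52.1% untreated. This difference of −5.63 percentage points (exact permutation test p = 0.3) was lower in all 3 pairs (exact sign-flip test p = 0.25). Both paired values are the smallest that 3 pairs allow.

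Among the largest increases in HA, the site at Tgm2 (chr2:158145058-158146074), coding for the crosslinking enzyme transglutaminase 2, had 229, 187 and 264 tags after LPS, against 38.2, 25.5 and 43.2 untreated (log2 fold change 2.66, SE 0.29, limma adjusted p = 0.0048). The site at the phosphoinositide phosphatase gene Mtmr7 (chr8:40594887-40595905) had 272, 239 and 229 tags after LPS, against 41.7, 36.1 and 35.5 untreated (2.67, SE 0.25). The largest increase lay at the predicted gene Gm47922 (chr10:78134718-78135768), with 298, 397 and 186 tags after LPS, against 34.1, 43.8 and 22.6 untreated (3.08, SE 0.35). Dnaic2 (2.40), a dynein intermediate chain gene, and Slpi (2.31) had the next largest increases. H3K27ac and Pol II rose over all 5 of these sites in both lines, and the regions at Gm47922 overlapped an input region. Per kb Pol II at Gm47922 was not called (0.83 and 0.70). At Tgm2 H3K27ac changed by 2.64 in Nur77 and 2.39 in GFP cells (1.14 and 1.13 per kb) and Pol II by 5.21 and 3.31 (1.72 and 1.07 per kb). Pol II at Tgm2 in untreated Nur77 cells was 6.60 tags in replicate 1 and 39.9 in replicate 2, and the SE of each Pol II change was 0.65. At Mtmr7 H3K27ac changed by 2.42 and 2.32 (1.47 and 1.78 per kb).

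The largest decrease in HA was at Maco1 (chr4:134837842-134838858), coding for macoilin, with 26.6, 24.8 and 37.3 tags after LPS, against 136, 110.3 and 182 untreated (log2 fold change −2.23, SE 0.29, limma adjusted p = 0.0075). At Serinc3, a membrane protein that limits retroviral infectivity, HA was 32.1, 57.5 and 45.2 tags after LPS, against 155, 176 and 168 untreated (−1.90, SE 0.28). They were followed by Hdac4 (−1.89), a class IIa histone deacetylase, a site near Otulinl (−1.81) and chr2:70877165-70878194 (−1.75). The 3 LPS libraries lay below the 3 untreated libraries at all 5, which follows largely from choosing the largest called decreases in these same libraries. H3K27ac fell over all 5 in Nur77 cells, by 0.67 (Hdac4) to 1.47 on the log2 scale, and over 4 of them in GFP cells, while at Hdac4 in GFP cells the change was −0.21 and was not called. Per kb the H3K27ac changes at Hdac4 in Nur77 cells (−0.08) and at Maco1 in GFP cells (−0.47) were not called either. The H3K27ac regions at Serinc3 and Hdac4 overlapped an input region.

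**Figure D2:**
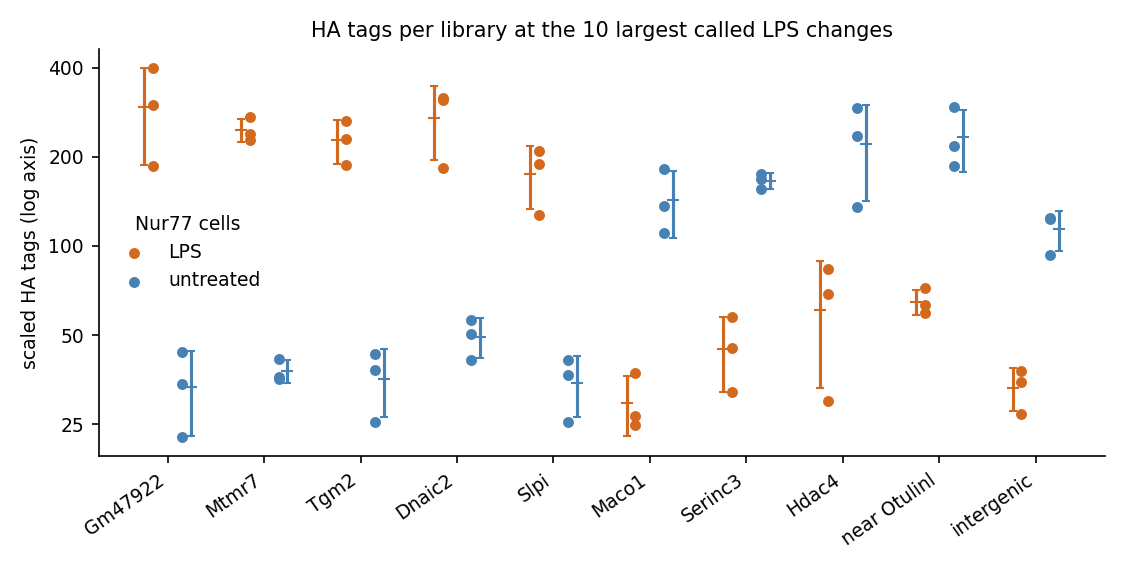
HA level (y axis, tags scaled to 10 M mapped tags, log scale) at the 5 largest called increases and the 5 largest called decreases with LPS among the constitutive acetylated sites. Points are the 3 libraries after LPS and the 3 untreated libraries, with their mean ± SD. The LPS and untreated points do not overlap at any of the 10 sites, for example 229 to 272 against 35.5 to 41.7 at Mtmr7. The 10 sites were chosen as the largest called changes in these same libraries, so this separation follows largely from the choice.

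Where HA rose or fell, H3K27ac was called in the same direction at most regions of both lines, and Pol II at fewer. Of 267 H3K27ac regions holding an HA-increased site 92.9% rose with LPS in Nur77 cells and 94.8% in GFP cells, against 35.7% and 36.7% of 7998 regions whose sites had no called HA change. The median log2 fold changes over the HA-increased sites were 1.49 and 1.57. A region holding sites of more than 1 kind was counted under each. Of 140 Pol II regions over HA-increased sites 80.0% rose in Nur77 and 75% in GFP cells, against 21.2% and 15.0% of 5564. Their median log2 fold changes were 2.01 and 1.87, above those of H3K27ac. The smaller shares called in Pol II therefore do not mean smaller changes. Over the 84 HA-decreased sites H3K27ac fell at 85.7% in Nur77 and 76.2% in GFP cells (medians −0.98 and −0.85), against 29.7% and 27.5% where HA had no call. Pol II fell at 63.9% and 44.4% of 36 regions (medians −1.27 and −1.06), against 14.9% and 9.40%. With the larger sets called under the replicate block the shares were lower but ordered the same way. H3K27ac rose at 79.0% and 81.0% of 1765 regions over HA-increased sites, and fell at 63.6% and 60.6% of 1501 over HA-decreased ones. Pol II rose at 55.2% and 46.0% of 1099 regions over HA-increased sites, and fell at 38.6% and 27.5% of 914 over HA-decreased ones.

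**Figure D3:**
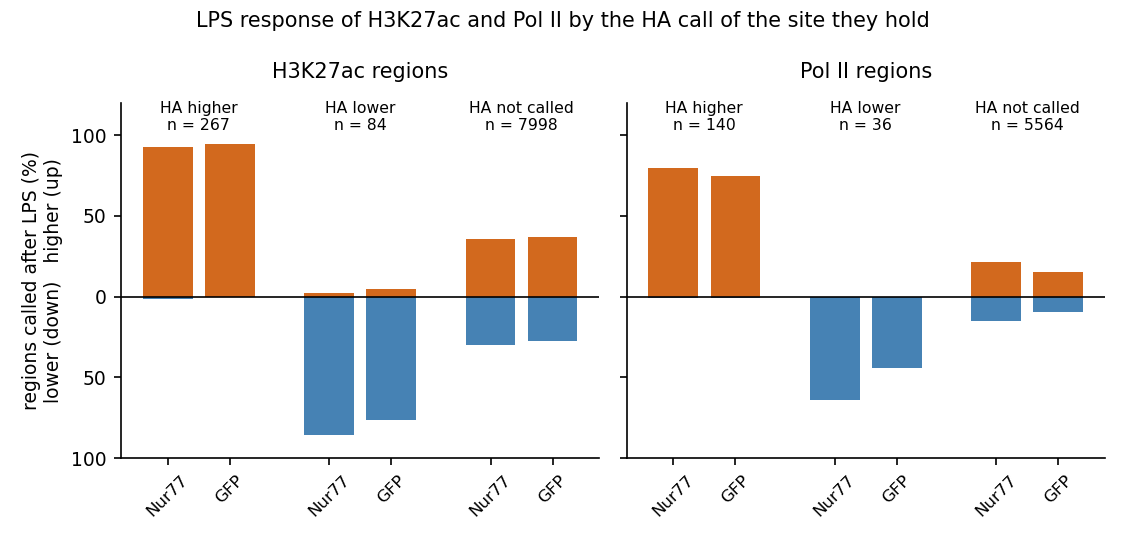
Share of H3K27ac regions and of Pol II regions called higher or lower after LPS (y axis, %), in Nur77 and in GFP cells, grouped by whether the HA site they hold rose, fell or had no called change with LPS. In both lines nearly all H3K27ac regions over HA-increased sites rose (92.9% and 94.8%), against 35.7% and 36.7% over sites with no HA call.

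Pol II changed with LPS at 37.2% of the regions over constitutive acetylated sites in Nur77 cells and 25.6% in GFP cells. Of 5721 Pol II regions 1278 (22.3%) rose and 850 (14.9%) fell in Nur77 cells, against 15.2% and 15.0% of all 17081. In GFP cells 928 (16.2%) rose and 539 (9.42%) fell, against 10.0% and 8.55%. In the 11360 regions with no site 11.7% rose and 15.1% fell in Nur77 and 6.93% and 8.12% in GFP cells. Both lines rose at 842 of the regions with a site, both fell at 470, and the lines moved in opposite directions at 1. Over all 17081 regions these counts were 1523, 1321 and 1. Without scaling between libraries the median of all regions shifted by −0.40 in Nur77 and −0.15 in GFP cells, and the changes given are relative to that median. The unscaled split was 791 higher and 1429 lower in Nur77 and 744 and 703 in GFP cells. Per kb of called peak 662 regions were higher and 381 lower in Nur77 and 428 and 189 in GFP cells. Of the regions called as sums 1979 of 2128 in Nur77 and 1387 of 1467 in GFP cells had the same sign per kb. The Nur77 count of 2128 was 1272 and 1058 without untreated replicate 1 and 2. The GFP count of 1467 was 932, 858 and 740 without untreated replicate 1, untreated replicate 2 and LPS replicate 1.

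Among the largest Pol II increases, over Mmp14 (chr14:54440655-54449706), coding for a membrane-bound matrix metalloproteinase, Pol II was 1041 and 1751 tags in Nur77 cells after LPS, against 6.60 and 64.3 untreated. In GFP cells it was 682 and 1144 after LPS, against 11.1 and 17.5 untreated (log2 fold changes of summed tags 5.92 and 5.89, SE 0.86 each). The 6.60 tags were of untreated Nur77 replicate 1, the library with the fragment length of 1550 bp. The same low value recurred in that library at Tgm2, so the size of the change in Nur77 cells is uncertain. The called length was 8.74 kb after LPS, against 1.92 kb untreated, in Nur77 cells and 8.20 kb, against 0.652 kb, in GFP cells, and the changes per kb were 2.96 and 2.25. Over the atypical chemokine receptor gene Ccrl2 (chr9:111049994-111078379), which also overlapped an input region, it was 5875 and 6559 in Nur77 cells after LPS, against 65.4 and 159 untreated (5.91, and 3.34 per kb). Over Ttyh2 and Dnaic2 the changes were 5.49 in Nur77 and 6.11 in GFP cells (2.96 and 3.28 per kb). In GFP cells the lineage factor gene Mitf (4.86), the laminin gene Lamc1 (4.57) and Lpp (4.56), coding for a focal adhesion protein, followed, the last 2 over input regions. Per kb they were 1.29, 2.91 and 1.91, and all the increases named here were also called per kb.

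The largest Pol II decreases were at Ttc39a (chr4:109399342-109409605), with 27.2 and 47.2 tags in Nur77 cells after LPS, against 520 and 687 untreated (−4.02), and a change of −3.38 in GFP cells. The called length at Ttc39a was 1.29 kb after LPS, against 9.57 kb untreated, in Nur77 cells, and the changes per kb were −1.37 and −0.92. At Alox5 (chr6:116455191-116462057), the 5-lipoxygenase that starts leukotriene synthesis, Pol II was 23.5 and 24.9 in Nur77 cells after LPS, against 268 and 353 untreated (−3.61, and −1.03 per kb). Mcph1 and Angpt2, the second coding for a vascular growth factor, shared a region with −3.64 in Nur77 cells (−1.23 per kb). In GFP cells the adhesion regulator Cytip (−3.33, and −1.07 per kb) and the replication licensing gene Cdc6 (−2.97, and −1.54 per kb), both over input regions, also fell. In each of these genes the LPS libraries of a line did not overlap its untreated libraries. The genes were chosen for their called change in these same libraries, so this follows largely from the choice.

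**Figure D4:**
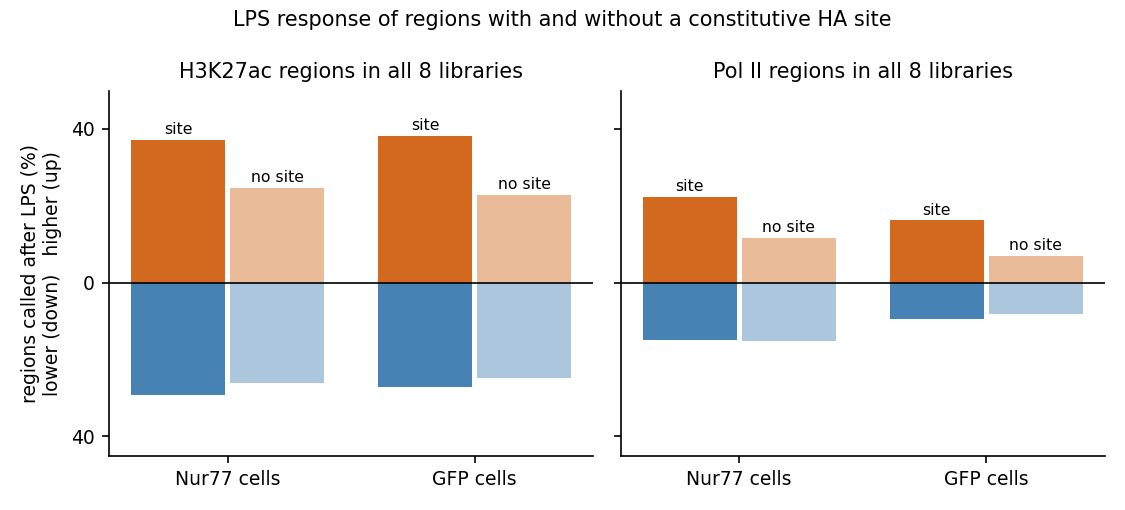
Share of Pol II regions and of H3K27ac regions called higher (upward bars) or lower (downward bars) after LPS (%), in Nur77 and GFP cells, for regions that hold a constitutive acetylated site and regions that do not. The upward bars are taller with a site in both assays and both lines, for example 22.3% against 11.7% for Pol II in Nur77 cells. The downward bars are taller with a site too, except for Pol II in Nur77 cells (14.9% against 15.1%). Regions with a site also had higher median levels (148 against 62.6 scaled tags in H3K27ac, 170 against 149 in Pol II). Whether level shapes these shares was not tested.

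H3K27ac changed with LPS at 66.5% of the regions over the sites in Nur77 cells and 65.2% in GFP cells. In Nur77 cells 3089 of 8322 (37.1%) rose and 2442 (29.3%) fell, against 28.5% and 27.1% of all 27094. In GFP cells 3171 (38.1%) rose and 2257 (27.1%) fell, against 27.5% and 25.5%. In the 18772 regions with no site 24.7% rose and 26.0% fell in Nur77 cells and 22.9% and 24.8% in GFP cells. Both lines rose at 2730 of the regions with a site, both fell at 1936, and they moved in opposite directions at 24. Over all 27094 regions these counts were 6115, 5648 and 45. Without scaling the median of all regions shifted by −0.33 in Nur77 and −0.32 in GFP cells. The unscaled split was 1780 higher and 4027 lower in Nur77 and 1894 and 3772 in GFP cells, so that a change smaller than this shift has no fixed direction. A higher level can mean more cells with the mark or more of it per cell, which bulk libraries cannot tell apart.

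The largest H3K27ac increase in both lines lay near Siglecg (chr7:43397080-43401314), an inhibitory sialic acid receptor, with 163 and 139 tags in Nur77 cells after LPS, against 12.5 and 8.75 untreated. In GFP cells it had 165 and 137 after LPS, against 9.89 and 11.95 untreated (log2 fold changes of summed tags 3.72 and 3.67). The called length was 3.71 kb after LPS, against 0.789 kb untreated, in Nur77 cells and 3.33 kb, against 0.757 kb, in GFP cells, and the changes per kb were 1.33 and 1.40. Regions near Tnfrsf17 (3.44 in Nur77, 3.21 in GFP cells), at Igfbp7 (3.32 in Nur77), a secreted binding protein for insulin-like growth factors, and at Mmp14 (3.55 in GFP) also rose. Per kb these were 1.27, 1.19, 1.65 and 0.97. The largest decrease in Nur77 cells was at Kbtbd11 (chr8:15026134-15030215), with 34.8 and 39.1 tags in Nur77 cells after LPS, against 261 and 303 untreated (−2.90). GFP cells had 39.4 and 41.3 after LPS, against 229 and 184 untreated (−2.32), and per kb the changes were −1.73 and −1.70. In Nur77 cells it was followed by a region near Cldn34b2 (−2.88, and −1.62 per kb), the transcription factor gene Arid3a (−2.73, and −0.94 per kb) and the sialyltransferase gene St6gal1 (−2.72, and −1.45 per kb). In GFP cells Arid3a, whose region overlapped an input region, fell by 2.36 and by 0.87 per kb. All these changes were called both as sums and per kb.

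More regions over the sites were called different between Nur77 and GFP cells in H3K27ac than in Pol II, both untreated and after LPS. Such counts depend on the spread of each assay as well as on the size of a difference. They do not rank the assays by size. Untreated, H3K27ac was higher in Nur77 than GFP cells at 2103 regions (25.3%) and lower at 1403 (16.9%), against 15.4% and 15.3% of all regions. After LPS it was higher at 2023 (24.3%) and lower at 1798 (21.6%), against 16.5% and 19.5%. The untreated count of 3506 was 2311 without untreated Nur77 replicate 2. Per kb of called peak the counts were 1537 untreated (902 higher and 635 lower) and 1737 after LPS (842 higher and 895 lower). Which direction was more frequent after LPS thus depended on the measure. Pol II was higher at 5 (0.0874%) and lower at 6 (0.105%) untreated, against 0.111% and 0.0585%. After LPS Pol II was higher at 84 (1.47%) and lower at 31 (0.542%), against 0.872% and 0.65%. Without scaling, these became 12 higher and 6 lower untreated, with a median shift of 0.18, and 50 higher and 43 lower after LPS. Same-numbered Pol II libraries deviated together (correlations 0.35 to 0.63). With the replicate number as a block Pol II was higher at 254 (4.44%) and lower at 175 (3.06%) untreated. Over all 17081 regions the block gave 463 and 559. After LPS it gave 625 higher (10.9%) and 327 lower (5.72%) over the sites, against 1107 and 1076 over all regions. Without the block both Pol II counts rested on single libraries. The untreated count was 0 when any 1 of 7 libraries was left out and 12 without GFP untreated replicate 2. The count after LPS was 78 and 69 without GFP untreated replicate 1 and 2, and 0 without any 1 of the other 6. Per kb the Pol II counts were 5 and 7. Line and construct cannot be told apart in these contrasts. The sites were chosen by HA peaks of Nur77 cells alone, a choice that may favour regions higher in that line. The shares over the sites therefore describe the set, and their excess over all regions was not tested.

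Among the largest line differences, H3K27ac near Ccdc25 (chr14:65881796-65885777) was 179 and 222 tags in Nur77 cells after LPS, against 9.36 and 12.2 in GFP cells after LPS. It was 197 and 190.5 in untreated Nur77 cells, against 8.69 and 7.37 in untreated GFP cells (log2 differences 4.10 and 4.43, and 1.83 and 2.48 per kb). Over Ptpn3 (chr4:57304868-57309651), a tyrosine phosphatase gene, it was 16.0 and 28.2 in Nur77 cells after LPS, against 238 and 267 in GFP cells after LPS. It was 42.7 and 27.3 in untreated Nur77 cells, against 274 and 269.9 in untreated GFP cells (−3.51 and −2.96, and −1.72 and −1.77 per kb). Pol II over the chemokine receptor gene Ccr1 (chr9:123967168-123969687) was 15.3 and 18.5 in Nur77 cells after LPS, against 109 and 98.3 in GFP cells after LPS (−2.55), and differed by −2.65 untreated. Per kb the Ccr1 differences were −1.33, which was not called, and −1.47. Pol II over the transcription factor gene Klf7 was higher in untreated Nur77 cells (2.86), and its 1.25 per kb was not called. At each of these the libraries of the lines did not overlap, which follows largely from choosing the largest called differences in these same libraries.

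The LPS response itself differed between the lines at a small number of acetylated regions. The H3K27ac response was larger in Nur77 than in GFP cells at 13 regions (0.156%) and smaller at 74 (0.889%), against 0.118% and 0.476% of all 27094 regions. Without scaling it was larger at 1 and smaller at 31. No Pol II region over a site passed the same test in limma (0 higher and 0 lower, background 0.0% in each direction). At an unadjusted p under 0.05 there were 200 such Pol II regions, and with the replicate block 0 passed. Of the 74 regions 45 lost H3K27ac with LPS in Nur77 cells and 22 gained it, while in GFP cells 21 lost and 41 gained it. The median log2 fold changes were −0.36 in Nur77 and 0.32 in GFP cells. The 74 regions held 80 sites, of which 3 had a called HA change without the block and 40 with it. Of all 8685 sites 4.08% had one without the block and 38.3% with it. Pol II over the same places did not enter the choice, but the labels do not say whether both assays used the same cultures. The Pol II response was smaller in Nur77 than in GFP cells at 67 of 69 Pol II regions (97.1%, median difference −0.67), against 2684 of 5710 (47.0%, median 0.02) where the H3K27ac responses had no called difference. These regions share the same libraries (n = 2 per group) and are not replicates, so the shares describe the set and were not tested. The count of 87 depended on single libraries. It was 0 without Nur77 untreated replicate 2, 3 without Nur77 untreated replicate 1 and 23 without Nur77 LPS replicate 1. It was 2 without GFP untreated replicate 2, 18 without GFP untreated replicate 1 and 17 without GFP LPS replicate 1, and 80 and 82 without either remaining library. With tags per kb of called peak it was 0, and 83 of the 87 differences had the same sign.

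Klf10, an immediate-early gene coding for a zinc finger transcriptional repressor, was among the 74. H3K27ac over Klf10 (chr15:38295966-38303227) was 202 and 226 tags in Nur77 cells after LPS, against 380.4 and 419.6 untreated. GFP cells had 415 and 406 tags after LPS, against 333 and 290.0 untreated (difference of the log2 fold changes −1.30, SE 0.13, limma adjusted p = 0.004). The HA site at Klf10 had no called change, with 56.5, 85.8 and 60.1 tags after LPS, against 61.1, 52.3 and 46.5 untreated, and Pol II differed in the same direction without a call (−1.51). At Tfeb (chr17:47736464-47740309), coding for the regulator of lysosome biogenesis, H3K27ac was 39.1 and 49.3 in Nur77 cells after LPS, against 204 and 209 untreated. In GFP cells it was 68.96 and 75.9 after LPS, against 138 and 131 untreated (−1.32). At Git2, an Arf GTPase-activating protein, H3K27ac was 125 and 142 in Nur77 cells after LPS, against 163 and 179 untreated. GFP cells had 53.7 and 61.2 after LPS, against 27.4 and 30.3 untreated (−1.33). In the other direction, a region near the amino acid transporter gene Slc38a2 (chr15:96733020-96738779) had 914 and 805 tags in Nur77 cells after LPS, against 470.1 and 473 untreated. GFP cells had 269 and 248 after LPS, against 235 and 245 untreated (0.76). The adjusted p of Klf10 exceeded 0.05 in 1 of 8 fits that left out a library, that of Tfeb in 4 and those of Git2 and Slc38a2 in 5. Per kb the differences were −0.79 at Klf10, −1.01 at Tfeb, −0.64 at Git2 and 0.74 near Slc38a2, none of them called.

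**Figure D5:**
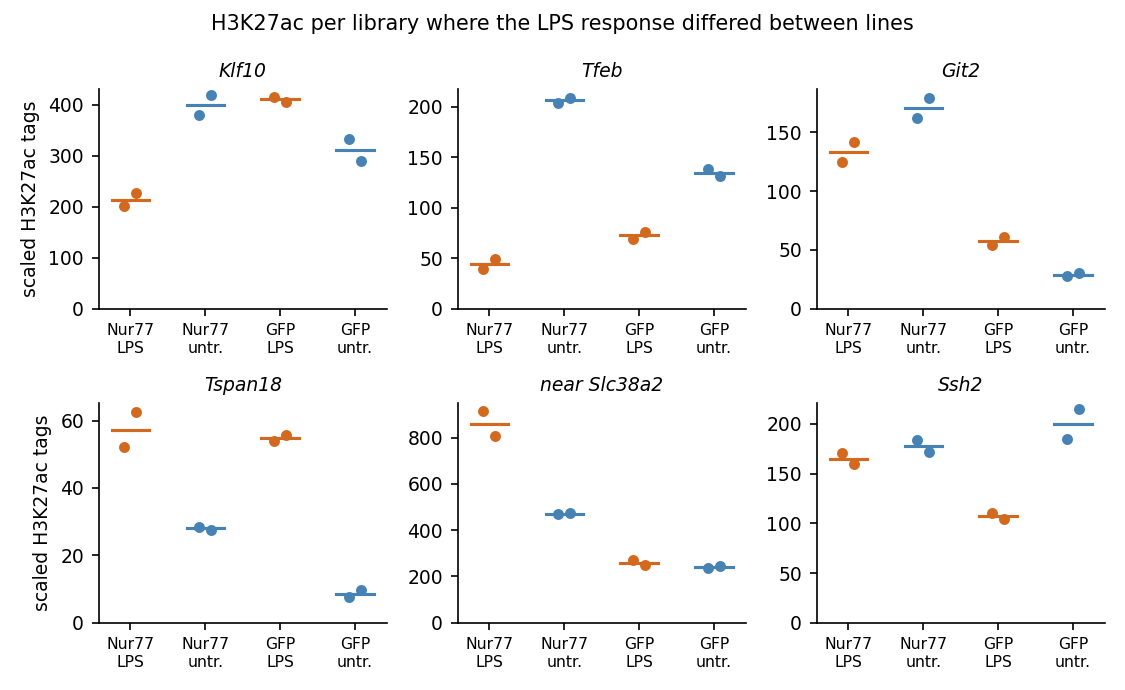
H3K27ac level (y axis, tags scaled to 10 M mapped tags) per library in Nur77 and GFP cells, after LPS and untreated, at Klf10, Tfeb, Git2, Tspan18, near Slc38a2 and at Ssh2. Points are libraries and bars the mean of 2. At Klf10 the Nur77 points after LPS (202 and 226) lie below the untreated ones (380.4 and 419.6), while the GFP points after LPS (415 and 406) lie above theirs (333 and 290.0). The regions were chosen from the largest called differences in these same libraries, so the patterns follow largely from the choice. None of these differences was called per kb, and those at Tspan18 and Ssh2 lost the call in every fit that left out a library.

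Groups of genes were read by role, each from a list written with earlier results of these data known. For comparison, 4084 of 21883 protein-coding genes (18.7%) held a constitutive acetylated site by the same 1 kb margin. Of 21 genes of NF-kB and its feedback regulators 12 held 16 sites, of which 4 rose in HA and 0 fell (limma; 9 and 0 at an unadjusted p under 0.05, 11 and 0 with the block). Of all 8685 sites 3.11% rose and 0.967% fell, and 20.7% and 17.6% did so with the block. The median HA log2 fold change of the 16 NF-kB sites was 0.85, against −0.01 over all 11234 constitutive HA regions. The site at Tnfaip3 (chr10:19008929-19009945), coding for the ubiquitin-editing inhibitor A20, had 131, 141 and 96.1 HA tags after LPS, against 30.0, 28.0 and 38.1 untreated (1.90). A second site at Tnfaip3 had 95.6, 145 and 94.3 after LPS, against 113, 91.2 and 73.5 untreated (0.26, not called). At Tnfaip2, a gene that TNF induces, the site lay over an input region. Its HA level was 122, 242 and 166 after LPS, against 26.5, 50.3 and 47.8 untreated (2.06). Nfkbiz (1.39), coding for the nuclear IkB-zeta, and the adaptor gene Traf2 (1.25) were the other HA increases, both named because they were called. The strongest NF-kB site, at Tnip3, had no called change (−0.11). Pol II rose at 8 of 11 regions in Nur77 and 7 in GFP cells and fell at 0 in either (limma, 0 also at an unadjusted p under 0.05). Over all regions with a site 22.3% rose in Nur77 and 16.2% in GFP cells. The changes were 3.54 and 3.35 at Tnfaip3 (1.38 and 1.30 per kb), 3.36 and 2.95 at Nfkbiz (1.03 and 1.36 per kb) and 2.21 and 2.07 at Tnfaip2 (1.64 and 1.82 per kb), and the median over the 11 regions was 2.05 in Nur77 and 1.91 in GFP cells, against 0.01 in each line over all regions. H3K27ac rose at 11 of 14 and fell at 2 in each line, against 37.1% and 29.3% of all regions with a site in Nur77 and 38.1% and 27.1% in GFP cells, with Tnfaip3 at 1.62 and 1.93 and Tnip1 at 0.72 and 0.76. Tnfaip2 had less H3K27ac in Nur77 than GFP cells both after LPS (−1.08) and untreated (−0.99).

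Of 23 cytokine genes 2 held a site, Il1a and Il23a. The site at Il23a (chr10:128297791-128299360), a subunit of interleukin 23, had 152, 136 and 108 HA tags after LPS, against 46.4, 46.7 and 42.5 untreated (1.52), and H3K27ac rose there by 2.06 in Nur77 and 2.01 in GFP cells. The site at Il1a, over an input region, had 136, 115 and 151 tags after LPS, against 131, 125 and 169 untreated. Of 23 interferon genes 7 held 10 sites. The strongest, at Irf2, Irf5 and Ifnar2, had no called HA change without the block. At Oasl1, named because it was the list's called change, HA was 86.4, 92.2 and 129 after LPS, against 22.3, 44.6 and 19.4 untreated (1.87). Pol II at Oasl1 rose by 2.90 in Nur77 and 2.11 in GFP cells and H3K27ac by 1.58 and 1.11, but per kb none of these was called (0.70 and 0.37 for Pol II, 0.20 and 0.07 for H3K27ac). Over Ifnar2 and Il10rb, receptor chains for interferon and interleukin 10, Pol II rose by 2.09 in Nur77 and 2.08 in GFP cells.

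Among the immediate-early and AP-1 genes, which LPS is known to induce at once, a site was held by 4 of 23 immediate-early genes outside AP-1 (Klf2, Klf4, Klf10 and Dusp5), 1 of 13 AP-1 genes (Batf) and 1 of the 3 NR4A genes (Nr4a2). Of their 6 sites 0 had a called HA change in limma (1, at Batf, at an unadjusted p under 0.05 and with the block). The site at Klf2, a factor that restrains macrophage activation, was the strongest of them, with 256, 241 and 321 HA tags after LPS, against 254, 244 and 306 untreated. H3K27ac over Klf2 fell by 1.41 in Nur77 and by 0.50 in GFP cells (difference −0.91, adjusted p = 0.016, limma; −0.88 per kb, not called). The site at Nr4a2, coding for the Nur77 relative NURR1, had 37.5, 64.6 and 30.7 HA tags after LPS, against 48.2, 42.6 and 19.4 untreated (0.29, not called), and the conditions overlapped. Pol II over Nr4a2 was 710.3 and 682 tags in Nur77 cells after LPS, against 629 and 738 untreated (0.03, not called). GFP cells had 612 and 615 after LPS, against 957 and 903 untreated (−0.60, adjusted p = 0.025 in limma), and the difference between the lines' responses was not called (0.63). H3K27ac over Nr4a2 fell by 0.45 in Nur77 and by 0.65 in GFP cells. Per kb neither these changes (−0.33 and −0.25) nor the Pol II change in GFP cells (−0.43) were called. At Dusp5, a phosphatase that inactivates ERK, Pol II rose by 1.69 in Nur77 and 1.65 in GFP cells, but its 0.43 and 0.35 per kb were not called. At Batf H3K27ac rose by 0.73 in Nur77 (0.23 per kb, not called) and 0.95 in GFP cells and was lower in Nur77 than GFP cells, by −0.97 after LPS and −0.75 untreated. Of 11 BCL2 family genes 6 held 7 sites, with 0 called HA changes in limma (0 at an unadjusted p under 0.05; 3 rose and 1 fell with the block). Pol II rose at 3 of 7 of their regions in each line, against 22.3% and 16.2% of all regions with a site. These were the regions of both Bcl2a1 copies, whose reads may be split, and Bcl2l1 (1.20 in Nur77, 1.06 in GFP cells), which codes for BCL-XL and was not called per kb (0.60 and 0.61).

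Of these lists, genes of myeloid identity held the most sites per gene: 9 of 18 listed factors held 27, among them 8 at Runx1 and 6 at Etv6. Sites were counted over the whole span of a gene, so a long gene can hold more, and gene length was not taken into account. Sites of one gene did not move as one. At Runx1, a factor of blood cell formation, a site at chr16:92800555-92801571 had 19.6, 39.9 and 18.9 HA tags after LPS, against 46.4, 73.8 and 47.1 untreated (−1.12, not called; adjusted p = 7.55e-06 with the block). Pol II and H3K27ac over it fell in Nur77 cells by 2.32 and 1.36, and per kb by 1.17 and 0.38. Over the site at chr16:92620431-92621447 HA was 107, 147 and 105 after LPS, against 85.2, 119 and 86.4 untreated (0.30, not called). Pol II over it rose by 2.21 in Nur77 and 2.40 in GFP cells (0.92 and 0.94 per kb) and H3K27ac by 0.83 and 0.95 (0.46 and 0.58 per kb). The strongest site of the list, at Etv6, had 225, 300.2 and 178 tags after LPS, against 155, 162 and 139 untreated (0.59, called only with the block). Bach1 was the list's called HA increase (1.19), with 96.8, 105 and 129 after LPS, against 50.5, 45.4 and 46.5 untreated. At Spi1, which codes for PU.1, the strongest of 3 sites had 161, 111 and 191 tags after LPS, against 102, 74.97 and 141 untreated (0.55, called only with the block). Of the 25 H3K27ac regions of the list 11 rose and 10 fell in Nur77 cells, and 14 rose and 6 fell in GFP cells, against 37.1% and 29.3%, and 38.1% and 27.1%, of all regions with a site.

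Of 22 lipid and lysosome genes 8 held 10 sites, with 0 called HA changes in limma (0 at an unadjusted p under 0.05; 4 rose and 0 fell with the block). Cd36, the scavenger receptor for oxidised lipoproteins, held the strongest site of any list (chr5:17876384-17877400), with 547, 317 and 502 HA tags after LPS, against 555, 391 and 610.4 untreated. H3K27ac over it was higher in Nur77 than GFP cells by 1.00 after LPS and by 1.11 untreated. It was 772 and 809.7 tags in Nur77 cells after LPS, against 406 and 383 in GFP cells after LPS. The site at Abca1, the cholesterol exporter, changed by 0.52 in HA (called only with the block). Pol II at Abca1 rose by 1.46 in Nur77 cells (0.77 per kb) and changed by 0.75 in GFP cells, which was not called. Of 21 other nuclear receptors 12 held 18 sites with 0 called HA changes in limma (1 higher and 1 lower at an unadjusted p under 0.05; 1 rose and 2 fell with the block). The strongest was at Pparg, with 164, 100.7 and 130 tags after LPS, against 150.5, 118 and 138 untreated, followed by Nr2c2 and Nr1h3, which codes for the oxysterol receptor LXR-alpha. Of 25 genes of the TCA cycle and pyruvate dehydrogenase 7 held 8 sites, with 0 called HA changes in limma (1 lower at an unadjusted p under 0.05; 0 rose and 2 fell with the block). H3K27ac rose at 0 of their 7 regions in either line (limma, 0 also at an unadjusted p under 0.05) and fell at 3 in Nur77 and 5 in GFP cells, against 29.3% and 27.1% of all regions with a site. Among them were Idh1 (−0.95 and −0.86), the cytosolic isocitrate dehydrogenase, and Fh1 (−0.74 and −0.68), fumarase. The change at Fh1 in Nur77 cells was not called per kb (−0.30). Of 12 housekeeping genes 2 held a site (Actb and Polr2a), neither with a called HA change. The median HA log2 fold change was 0.27 over the BCL2 family sites, 0.17 over the interferon sites, 0.15 over the lipid and lysosome sites, 0.09 over the other nuclear receptors, 0.04 over the TCA cycle sites and −0.08 over the myeloid sites.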

How the data were processed

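Peak lists were deposited by the authors for 6 HA, 8 Pol II, 8 H3K27ac and 4 input libraries (26 samples, mm10). Reads were aligned with HISAT2 2.1.0 and processed with HOMER, per the submitters' processing notes. Peaks were called per library with HOMER findPeaks, in factor style for HA and histone style for Pol II and H3K27ac, per the file headers. HA chromatin was crosslinked with 2 mM DSG and 1% formaldehyde, Pol II and H3K27ac chromatin with formaldehyde alone, per the labels. The deposited signal is a tag count scaled to 10 M (10 to the power 6) mapped tags, and the deposited ratio is the fold over the local background. Low values are multiples of 0.5 tag and not whole reads, so a count model was not used although it was the first choice for whole counts. The 3 H3K27ac libraries GFP untreated 1, GFP LPS 1 and Nur77 untreated 1 were called without the local filter setting of the other 5, per the file headers.

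Peaks of a target were merged at 1 bp overlap, and tags were summed per library. Libraries were scaled by TMM (30% and 5% trims) and fitted with limma 3.58.1 in R 4.3.3 on log2(tags + 1), with Benjamini-Hochberg adjustment over all regions of the target found in every library and a threshold of 0.05. The fits were tested on simulated data. Same-numbered HA libraries deviated together (correlations 0.48, 0.83 and 0.69), so the numbers pair the HA samples in these data, and the fit with the replicate block is given beside the main one. Depth limits the precision, with 6.41 to 28.4 M tags per immunoprecipitated library. Genes and promoter windows came from RefSeq GRCm38.p6, a gene being assigned within 1 kb. Named regions are the 10 strongest, the 5 largest called changes each way per comparison, and the 2 to 4 strongest per gene list. The sites and lists were chosen with earlier results of these data known. Alternatives were the block, no scaling, a pseudocount of 10, tags per kb, regions in at least 50% of the libraries, regions over input left out, and each library left out.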

Additional observations from a re-analysis of the deposited data

Results flagged for a closer look

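The LPS response of H3K27ac differed between Nur77 and GFP cells, by the test of that difference in limma, at 87 regions over constitutive acetylated sites. The 5 largest positive differences of log2 fold changes were 1.00 at Gm17745, 0.83 at Gm34931, 0.78 at Ssh2, 0.76 near Slc38a2 and 0.70 at Cnnm2. The 5 largest negative ones were −1.55 at Tspan18, −1.33 at Git2, −1.32 at Tfeb, −1.30 at Klf10 and −0.996 at chr15:63612731. The adjusted p exceeded 0.05 in all 8 fits that left out a library for Gm17745, Ssh2, Cnnm2 and Tspan18.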

How the results depend on the processing

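With the replicate number as a block the counts of called regions over the sites were 3329 for the HA response, 2564 for the Pol II response in GFP cells, 429 and 952 for the Pol II difference between lines untreated and after LPS, and 2801 for HA without both replicate 3 libraries (0 without the block). The block changed no other count by over 1.5 times: it gave 3131 for Pol II in Nur77 cells and 88 for the H3K27ac difference of responses. Without untreated Nur77 Pol II replicate 1 and with the block the Pol II counts were 2367 for GFP cells and 684 for the lines after LPS; settings with replicate 3 or this library left out were chosen after seeing the data. Same-numbered libraries correlated by 0.35 to 0.63 in Pol II and by −0.10 to 0.09 in H3K27ac.

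Tags per kb of called peak gave 1043 and 617 for the Pol II response in Nur77 and GFP cells, 5 and 7 for the Pol II line difference untreated and after LPS, 1537 and 1737 for that in H3K27ac, and 0 for the H3K27ac difference of responses. Without scaling the counts were 3 for HA, 18 for the untreated Pol II line difference and 32 for the H3K27ac difference of responses. Regions found in at least 50% of the libraries gave 51, 196 and 13 for the Pol II line differences untreated and after LPS and the H3K27ac difference of responses, and leaving out regions over input gave 0 and 65 for the first 2. Leaving out 1 library gave 0 to 374 calls for HA, 1058 to 2124 and 740 to 1440 for the Pol II response in Nur77 and GFP cells, 0 to 12 and 0 to 78 for the Pol II line difference, 0 to 0 for the Pol II difference of responses, 4577 to 5585 and 4554 to 5569 for the H3K27ac response, 2311 to 3674 and 3049 to 3680 for the H3K27ac line difference, and 0 to 82 for the H3K27ac difference of responses. It gave 8695 to 9504 sites, and −1.20 to 2.09 for the difference in the share of HA tags in the sites, which reversed to −1.20 without untreated replicate 3 and to −0.426 and −0.461 without LPS replicates 1 and 2. Peaks above the median of each library gave 4803 sites, and the share in a gene was 71.5% with no margin and 82.1% with 5 kb.

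For 191 single calls, 1203 values under other settings kept their side of the threshold in 1077 cases, lost it in 121 and reversed in 5, all with tags per kb: Dusp5 H3K27ac after LPS (−0.407 in Nur77 and −0.466 in GFP cells), and the H3K27ac line difference after LPS at Klf2 (−0.0056) and Runx1 (0.0536) and untreated at Nr4a2 (0.0349). Of 1494 values with 1 library left out 276 lost the call and 0 reversed. The cause of these changes was not tested.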
